A study of Mus musculus with 2 samples.

Results

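The 36 genes described here belong to red cells, to the haem pathway and to platelets. They were chosen by name, from the gene names of the array design, with earlier results of these data known. They are 36 of 30119 gene names on the array. In all, 19 are red cell genes, 10 act in haem synthesis or breakdown and 7 are platelet genes. All 36 had a probe, 44 probes in total, each printed in 1 spot per array. Total RNA was profiled in 1 library of sorted regulatory T (Treg) cells labelled Nr4a-deficient, from Nr4a-TKO mice, and in 1 library labelled wild-type. Mice of both genotypes were 5 weeks old, and no agent was given to either group per the labels. The alleles behind Nr4a-TKO, the strain, the tissue, the sort markers and the number of animals per library are not stated in the labels.

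Treg cells restrain immune responses and are not known for making globins or platelet granule proteins. Red cells form from erythroblasts, in which the factors Gata1, Klf1 and Tal1 switch on globins, haem enzymes and membrane proteins. Haem itself is made in every cell with mitochondria, and macrophages that engulf old red cells break it down again through haem oxygenase. Platelets are shed by megakaryocytes and carry some of that cell's RNA.

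Among the 36 genes, most red cell genes measured on both arrays were lower in the library labelled Nr4a-deficient. The platelet genes among them were near background in both libraries. Both arrays measured 12 red cell genes well above background, of which 9 fell short of wild-type by 2-fold or more and none exceeded it by 2-fold. Among all 16268 genes measured on both, 3.11% were lower by that much and 2.67% higher. The 9 include the 4 adult globins, whose probes may share signal, so they are not 9 independent measurements. Of those 12 red cell genes, 10 lay below 0, as did 52.2% of all genes. The red cell genes had a median log2 difference of -1.57, with a range from -1.95 to 0.36, against a median of -0.014 over all genes. Of the 10 haem pathway genes, all measured on both arrays, 2 were at least 2-fold lower, and their median was -0.21. Red cell genes outside the 36 had a median of 0.006 over the 28 measured on both arrays. Of 28 further platelet genes on the array, 19 were detected. Each difference is on the log2 scale, with wild-type subtracted from the library labelled Nr4a-deficient and each signal taken relative to the 75th percentile of its own array. With 1 array per genotype there was no test and no replicate check, and whether the groups overlap cannot be seen. In RNA of bulk samples, fewer cells of a type and less RNA per cell cannot be told apart.

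The 75th percentile of the signal was 1762 units of intensity in the library labelled Nr4a-deficient against 2047 in wild-type. The 2 arrays had 58.7% and 55.6% of probes well above background. Spots of 1 probe at the same array position gave an SD of the between-array difference of 0.044 for bright probes (scaled log2 level over 1), 0.058 from -1 to 1, 0.11 from -3 to -1 and 0.47 under -3. That SD describes spot noise only. The 8 spike-in RNAs lay 0.37 ± 0.058 (SD, n = 8) higher in the library labelled Nr4a-deficient, so every difference below is 0.37 lower on the spike-in scale. The targeted genes Nr4a1 (1.82-fold) and Nr4a2 (1.97-fold) gave more signal in the library labelled Nr4a-deficient, and Nr4a3 was too dim for the background call on both arrays. Which part of each gene was deleted is not given, so each direction here rests on the label. T cell markers were measured on both arrays, with Foxp3 near the floor. Cd3e, a subunit of the T cell receptor complex, had signals of 109161 (labelled Nr4a-deficient) and 111548 (wild-type), and the coreceptor Cd4 lay at a difference of 0.12, or -0.25 on the spike-in scale. Foxp3, the defining factor of Treg cells, gave only 74.5 and 85.4 units at its 1 probe, just over the lowest called signals of 51.1 and 73.8 units.

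**Figure D1:**
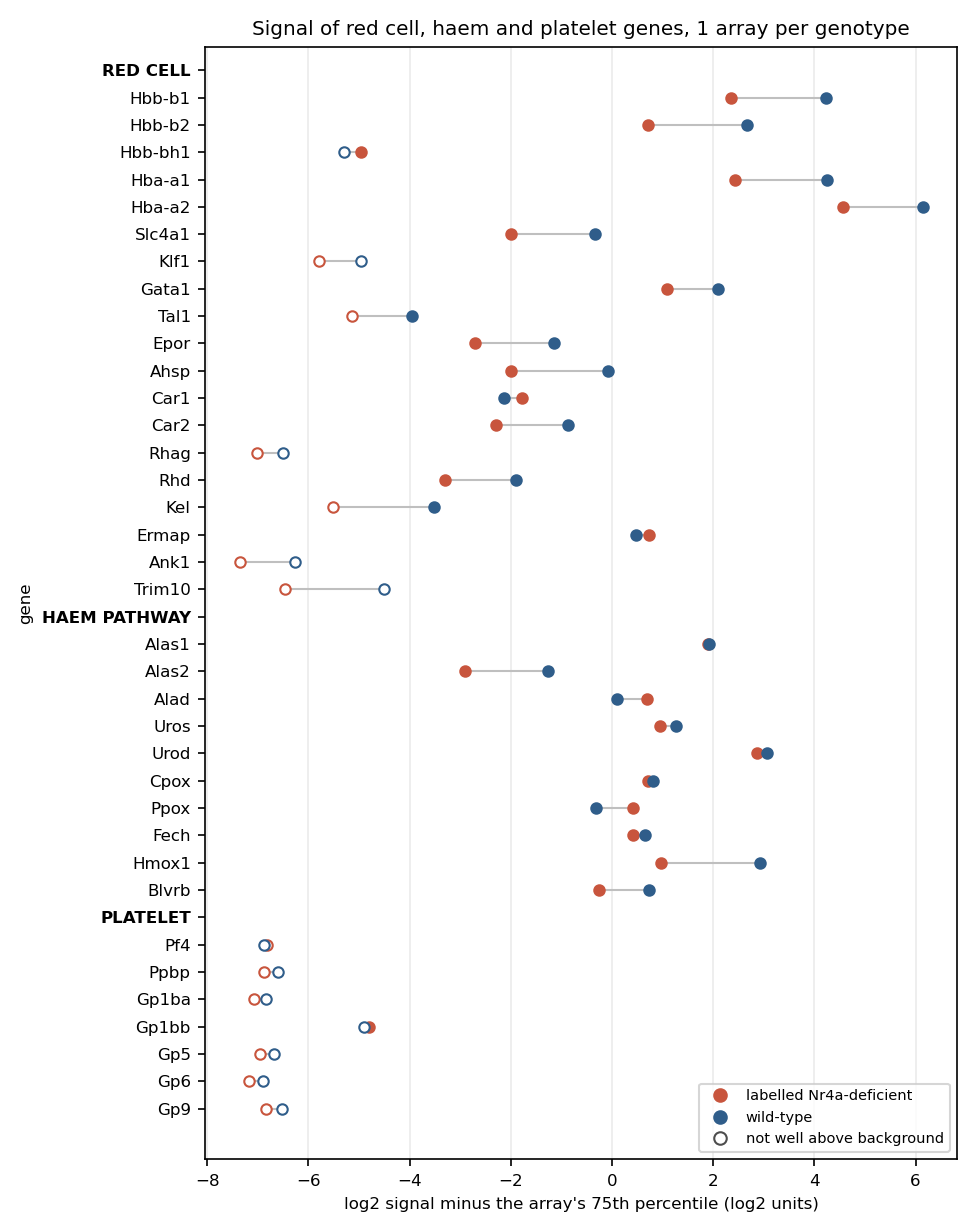
Scaled log2 signal of the 36 genes (x axis, log2 units relative to the 75th percentile of each array) in the library labelled Nr4a-deficient (red) beside wild-type (blue), 1 array each. Open circles mark probes not well above background. The 4 adult globins lie to the left in the library labelled Nr4a-deficient, at differences from -1.95 to -1.57, the haem synthesis enzymes other than Alas2 lie within 2-fold, and 6 of 7 platelet genes are open on both arrays.

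The globins, which form haemoglobin, showed 4 adult members lower by similar amounts. Hba-a1, an alpha globin, had 9495 units of signal in the library labelled Nr4a-deficient against 38825 in wild-type, a 3.52-fold lower value after scaling (log2 difference -1.82). Hba-a2, the second alpha globin copy, had 41882 and 144751 units, respectively, and was 2.98-fold lower. The beta globin Hbb-b1 had 9035 and 38379 units and was 3.66-fold lower, and the beta globin Hbb-b2 had 2895 and 12952 units and was 3.85-fold lower. All 4 were high in wild-type, none was saturated, and their differences spanned 0.37 log2 units, from -1.95 to -1.57. They are not 4 independent measurements. The files pair both alpha globin probes with the transcripts of both genes, and the adult beta globins are near-identical, so the copies may share signal. The probe named Hbb-b1 carries the accession of the gene now called Hbb-bt. A further beta globin probe, Hbb-bs (named Beta-s in the array design), is no member and was 4.10-fold lower (467 against 2226 units). The embryonic beta globin Hbb-bh1 had 56.4 and 51.9 units and was well above background in the library labelled Nr4a-deficient only, so no fold is given. The other embryonic globins, Hbb-y and Hba-x, were not well above background on either array.

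The probes of an alpha globin, a beta globin and the alpha globin chaperone Ahsp are shown because these transcripts carry the difference, and each is the 60-base sequence that captured the signal. All are printed from the scanner files, 5′ to 3′, with no part marked. The Hba-a1 probe lies at chr11:32183955-32184014 on the plus strand of mm9, the build of the array design. The other probes are unmapped in the files. The exon beneath each probe is not stated, for want of an mm9 annotation.
Hba-a1: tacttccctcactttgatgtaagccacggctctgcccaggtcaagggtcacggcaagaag
Hbb-b2: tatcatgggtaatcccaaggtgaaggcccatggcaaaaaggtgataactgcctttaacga
Ahsp: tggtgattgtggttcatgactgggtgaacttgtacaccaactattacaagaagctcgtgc

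Genes of the red cell membrane and cytoplasm went the same way as the globins, with exceptions. Ahsp, which holds free alpha globin until it pairs, had 444 units in the library labelled Nr4a-deficient against 1938 in wild-type, a 3.76-fold lower value. Slc4a1, the anion exchanger known as band 3, had 443 and 1612 units and was 3.13-fold lower. The Rh antigen gene Rhd had 179 and 547 units and was 2.64-fold lower, and Car2, a carbonic anhydrase, had 358 and 1120 units and was 2.70-fold lower. These 4 differences, from -1.91 to -1.40, were each over 10 times the spot SD of 0.11 at their mean level over both arrays. That SD holds spot noise only. For Rhd, the scaled log2 level in the library labelled Nr4a-deficient was -3.30, in the range with a spot SD of 0.47. Kel, the Kell blood group gene, was well above background in wild-type only (38.8 and 178 units) and was at least 3.004-fold lower. For such a gene the bright value is set against the detection floor of the dim array, and since it passed through 1 array only, some difference was built in.

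The exceptions were Car1, Ermap and genes too dim to measure. Car1, another carbonic anhydrase, had 517 and 467 units, a difference of 0.36 that became -0.01 on the spike-in scale. Its second probe (14.8 and 22.5 units) was below the background call on both. Ermap, an erythroblast membrane protein, had 2936 and 2834 units at its brightest probe, a difference of 0.27 that became -0.10 on the spike-in scale. Its other 2 probes were well above background in wild-type only, with 98.4 and 118 units there against 39.6 and 52.7, so the probes of Ermap disagree. Rhag, the partner of Rhd, had 13.6 and 22.7 units. The cytoskeletal anchor Ank1 had 10.72 and 26.7 units. Trim10, a protein of late erythroblasts, had 20.1 and 89.6 units. None of the last 3 passed the background call on an array, so they have no fold.

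The 3 erythroid transcription factors among the 36 genes differed in how far they could be measured. Gata1, the master factor of red cells and megakaryocytes, had 3760 units in the library labelled Nr4a-deficient against 8713 in wild-type and was 1.995-fold lower, just short of 2-fold. Its log2 difference of -0.996 lay beyond that of 96.9% of genes measured on both arrays. Tal1, a partner of Gata1, was well above background in wild-type only (49.8 and 132 units), with a bound of at least 2.23-fold lower. Klf1, the factor that drives adult beta globin, had 32.0 and 65.8 units and was below the background call on both arrays. Epor, the erythropoietin receptor, had 269 and 921 units and was 2.95-fold lower. With bounds counted, 11 of the 15 red cell genes above background on at least 1 array were at least 2-fold lower, where 5.05% of all 18540 such genes were, and none was at least 2-fold higher, where 4.82% were. Of the 11, Tal1 and Kel passed in wild-type only, so some of their difference was built in. The 4 red cell genes outside those 15 (Klf1, Rhag, Ank1 and Trim10) passed on neither array.

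**Figure D2:**
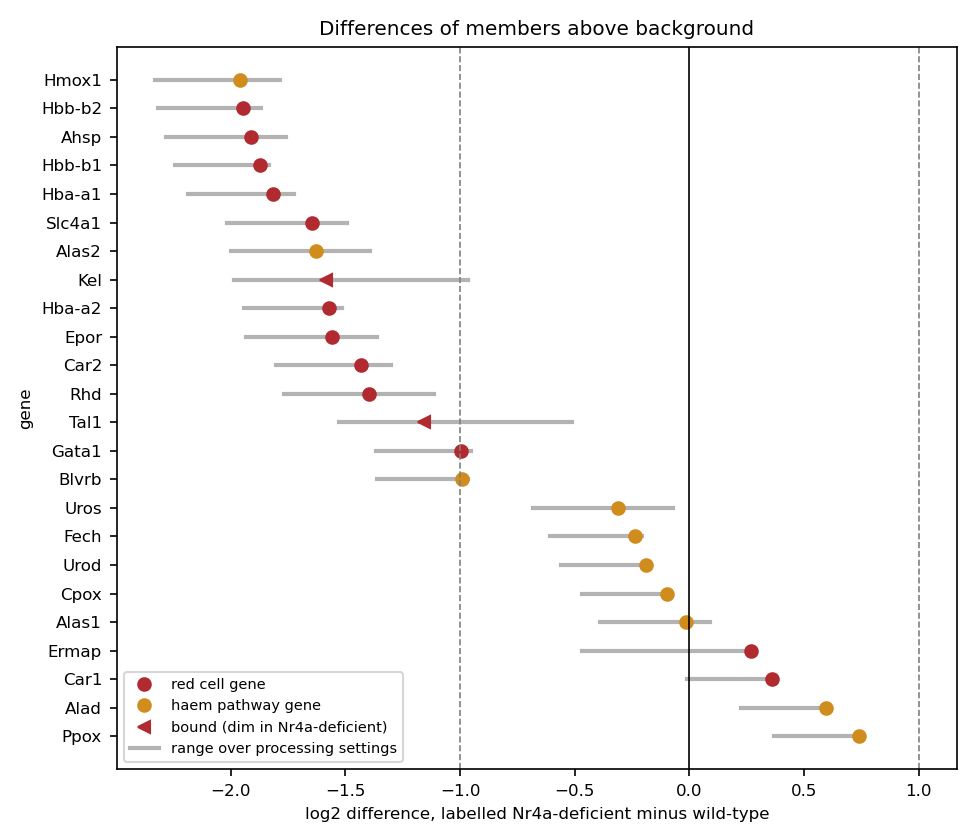
Log2 differences (x axis, wild-type subtracted from the library labelled Nr4a-deficient) for the 24 genes above background on both arrays or in wild-type only, with the range over 9 processing settings as grey bars (8 for Kel and Tal1). Dashed lines mark 2-fold. Circles are measured on both arrays and triangles are bounds. The upper 13 genes, Hmox1 to Tal1, lie past 2-fold, and Gata1 and Blvrb lie on the line.

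Haem synthesis split by enzyme. The pathway starts with an aminolevulinate synthase, and 2 genes encode it. Alas2, the form of erythroid cells, had 237 units in the library labelled Nr4a-deficient against 850 in wild-type, a 3.09-fold lower value (log2 difference -1.63). Alas1, the form of all other cells, had 6579 and 7730 units, a difference of -0.02, or -0.39 on the spike-in scale. Its second probe lay at 0.20. The erythroid form was thus the low one of the pair in these libraries.

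The enzymes after that first step were within 2-fold. Alad, which joins aminolevulinate into a pyrrole, had 2858 and 2199 units and a difference of 0.59, or 0.22 on the spike-in scale. Ppox, the enzyme before the last step, had 2354 and 1637 units and a difference of 0.74, or 0.37 on the spike-in scale. Both lay above 0 under every scale used, and both were more than 1.5-fold higher on the 75th percentile scale, as were 5.83% of all genes measured on both arrays. Uros (-0.31), Urod (-0.19), Cpox (-0.10) and Fech (-0.24), which close, trim, oxidise and load the porphyrin ring with iron, lay below 0. On the spike-in scale they lay lower still, at -0.68, -0.56, -0.47 and -0.61, respectively. A second, dim probe of Uros was well above background in the library labelled Nr4a-deficient only, with 71.7 against 34.7 units. The 8 synthesis genes had a median of -0.14, and only Alas2 was past 2-fold.

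Both genes of haem breakdown were lower. Hmox1, haem oxygenase, which opens the ring and frees iron, had 3434 units in the library labelled Nr4a-deficient against 15516 in wild-type, a 3.89-fold lower value and the lowest difference of the 36 genes (-1.96). Its second probe had 439 and 1557 units and lay at -1.61, in the same direction. Blvrb, a biliverdin reductase found in red cells and other cells, had 1483 and 3423 units and was 1.99-fold lower, just short of 2-fold. At a threshold of 1.5-fold, 3 of the 10 haem pathway genes (Hmox1, Alas2 and Blvrb) were lower, as were 6.41% of all genes measured on both arrays.

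Other haem and iron genes are known from macrophages that recycle red cells, and several of them were lower as well. Slc40a1, the iron exporter ferroportin, had 3020 units in the library labelled Nr4a-deficient against 15408 in wild-type and was 4.39-fold lower. Slc11a1, an iron transporter of phagosomes, was 2.85-fold lower (1118 and 3706 units). Abcg2, an exporter that can carry porphyrins, was 2.75-fold lower (676 and 2161 units), and the ferritin light chain Ftl1 lay at -0.99 at its brightest probe and at -1.70 at its second (6457 and 24301 units). Others went the opposite way or stayed within 2-fold. Hp, haptoglobin, which binds free haemoglobin, was 4.40-fold higher (467 and 123 units), and Srxn1, sulfiredoxin, an antioxidant enzyme, was 3.83-fold higher (3384 and 1028 units). The ferritin heavy chain Fth1 lay at 0.19, or -0.18 on the spike-in scale, and Hmox2, the haem oxygenase present in most tissues, at -0.02. In all, 24 genes of this list were detected, 3 of them lower and 2 higher by 2-fold or more (5.05% and 4.82% of all genes detected), with a median of -0.19 over the 23 measured on both arrays.

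Markers of macrophages moved with these genes. Of 15 macrophage markers, 13 were measured on both arrays, all 13 lay below 0 (52.2% of all genes) and 10 were at least 2-fold lower (3.11% of all genes), with a median of -1.45. Their summed level was 36.1 times the 75th percentile in the library labelled Nr4a-deficient against 86.0 times in wild-type. Spic, the factor of iron-recycling macrophages of the spleen, was 2.88-fold lower (3714 and 12423 units), and Vcam1, an adhesion molecule of these cells, 3.35-fold lower. Vsig4 and Clec4f, known from liver macrophages, were not well above background on either array. The part of macrophages in the values of Hmox1, Blvrb and Slc40a1 was not tested.

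**Figure D3:**
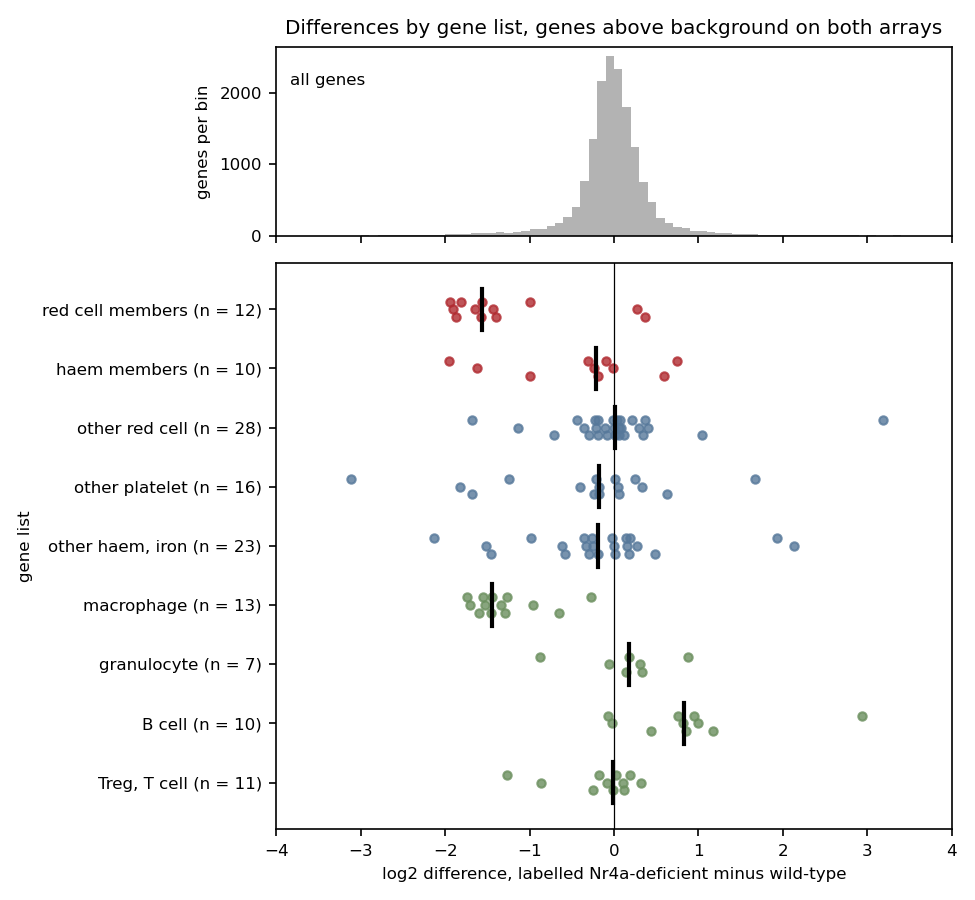
Log2 differences (x axis, wild-type subtracted from the library labelled Nr4a-deficient) for all 16268 genes above background on both arrays (top, histogram; 21 genes beyond 4 in size are outside the axis) and for each gene list (bottom, 1 point per gene, black bar at the median). The red cell genes and the macrophage markers sit at medians of -1.57 and -1.45, and the haem genes, the other lists and the T cell markers sit closer to 0 or above it.

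Platelet genes gave almost no signal. Pf4, platelet factor 4, the defining platelet marker of the list, had 15.6 units in the library labelled Nr4a-deficient against 17.4 in wild-type. The chemokine Ppbp, stored with Pf4 in platelet granules, had 14.9 and 21.0 units. The von Willebrand receptor subunits Gp1ba (13.2 and 17.8 units), Gp5 (14.2 and 19.9) and Gp9 (15.4 and 22.4) and the collagen receptor Gp6 (12.3 and 17.3) were as dim. All 6 lay close to the median of the negative-control spots, 12.8 and 17.5 units, and below the lowest signal called well above background, 51.1 and 73.8 units. Gp1bb, the remaining receptor subunit, had 63.1 and 68.1 units at its brightest probe, called in the library labelled Nr4a-deficient only, and no fold is given. No platelet gene was therefore compared between the libraries, and their absence was not shown, only that they were not detectable at this signal.

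Among other platelet genes, 19 of 28 on the array were detected, with 5 lower and 2 higher by 2-fold or more, against 5.05% lower and 4.82% higher over all detected genes. Clec1b, the podoplanin receptor of platelets, was 8.67-fold lower at its brightest probe (171 and 1721 units), and its other 2 probes lay at -1.35 and -3.37. Ptgs1, a cyclooxygenase, was 3.21-fold lower (937 and 3492 units), and Tbxas1, thromboxane synthase, 3.54-fold lower (435 and 1788 units). Macrophages also make both enzymes, macrophage markers had a median of -1.45, and their part in these values was not tested. Vwf, which encodes von Willebrand factor, was 2.37-fold lower, but was dim (73.9 and 203 units), at a level where the spot SD was 0.47. Its second probe was below the background call on both arrays. Selp, which encodes P-selectin, passed in wild-type only (42.5 and 243 units) and was at least 4.09-fold lower. Which cells gave the Clec1b, Vwf and Selp signals was not tested. Plek, pleckstrin, a protein of platelets and other blood cells, was 3.19-fold higher. Rgs18, a regulator of G proteins, passed in the library labelled Nr4a-deficient only (325 and 16.8 units) and was at least 5.10-fold higher. For Selp and Rgs18, some of the difference was built in. The megakaryocyte integrin Itga2b and the platelet tubulin Tubb1 were not well above background on either array.

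Among other red cell genes, the picture was mixed. Of 39 on the array, 33 were detected, 4 lower and 2 higher by 2-fold or more (all detected genes: 5.05% and 4.82%), with a median of 0.006 over the 28 measured on both arrays. Gfi1b, a repressor that erythroid cells and megakaryocytes need, was at least 5.50-fold lower (47.1 and 327 units). Tmod1, which caps the actin filaments of the membrane skeleton, was at least 2.23-fold lower. Both passed in wild-type only, so some of their difference was built in. The water channel Aqp1 was 2.21-fold lower (216 and 553 units). Bcl11a, the repressor of embryonic globins, was 9.10-fold higher (2344 and 299 units), and Lmo2, a bridge between Tal1 and Gata1, 2.06-fold higher. B cells also express Bcl11a. Of 10 B cell markers measured on both arrays, 8 lay above 0 and 2 below, where 52.2% of all genes lay below. At least 2-fold higher were 2 of the 10, as were 2.67% of all genes measured on both arrays. The B cell markers had a median of 0.83, or 0.46 on the spike-in scale. Their summed levels were 15.4 and 8.78 times the 75th percentile. The part of B cells in the Bcl11a value was not tested. The membrane skeleton genes Epb42 and Add2 were below the background call on both arrays, and the broadly expressed Epb41 lay at 0.09, or -0.28 on the spike-in scale.

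**Figure D4:**
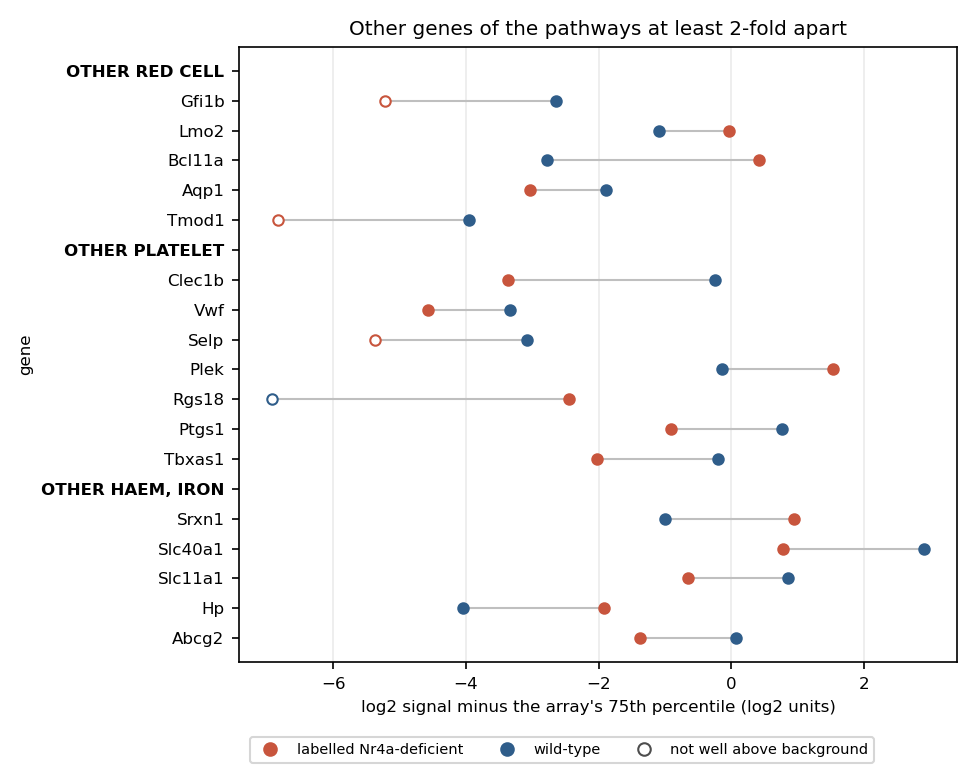
Scaled log2 signal (x axis, log2 units relative to the 75th percentile of each array) of 17 genes at least 2-fold apart in the lists of other red cell, other platelet and other haem and iron genes, in the library labelled Nr4a-deficient (red) beside wild-type (blue), 1 array each, with open circles for probes not well above background. In 11 genes the wild-type value is the higher one, and in Lmo2, Bcl11a, Plek, Rgs18, Srxn1 and Hp the other is.

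Of 14 granulocyte markers, 7 were measured on both arrays and none was past 2-fold, with a median of 0.18 (-0.19 on the spike-in scale). Their summed levels were 1.65 and 1.59 times the 75th percentile, and the basophil and mast cell markers Mcpt8, Cpa3 and Ms4a2 were not well above background. The basophil protease Prss34 was measured and lay at -0.88 (55.5 and 118 units), or -1.25 on the spike-in scale, which is past 2-fold. The 11 T cell and Treg markers had a median of -0.01 (-0.38 on the spike-in scale). The one past 2-fold on the 75th percentile scale was Il2ra, a chain of the IL-2 receptor, at -1.27. The Treg marker Tnfrsf18 lay at -0.86, or -1.23 on the spike-in scale, which is past 2-fold. The 19 red cell genes had summed levels of 41.1 (labelled Nr4a-deficient) and 124 (wild-type) times the 75th percentile. Of these sums, the 5 globins alone gave 36.0 and 115, and their probes may share signal.

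The promoters of the red cell genes share a sequence feature that the choice by name did not use. The site read by Gata1 was searched as AGATAA or TGATAA on both strands in the 250 bases before each RefSeq start (build GRCm38.p6). Promoters were found for 27 of the genes, with Hbb-bt standing for Hbb-b1. Such a match was present in 10 of 12 red cell genes, 3 of 8 haem genes and 3 of 7 platelet genes, where 16.6% of 32851 promoters held one. A gene counted if any of its windows matched, and the 27 genes had 32 windows. The shares of all promoters count single windows, so the units differ. The copies Hba-a1 and Hba-a2 both had a match and were counted separately. Of the 8 genes at least 2-fold lower with a promoter, 7 had a match, as did 9 of the 19 others. The exception among the 8 was Hbb-bt. The 19 others mix red cell, haem and platelet genes, so these shares also differ by list. Among red cell genes not called lower, Ermap, Klf1, Trim10 and Rhag had a match and Gata1 had none. Of these, Klf1, Trim10 and Rhag were too dim for a fold. A CCAAT match on either strand was in 8 of 12 red cell genes, 3 of 8 haem genes and 2 of 7 platelet genes. It was in 33.8% of all promoters. The exact letters CCACACCC, a form of the Klf1 site, were in none of the 27 and in 3.2% of all promoters. Other forms of the Klf1 site were not searched, so these genes were not shown to lack it. A match is a description of letters and shows neither binding nor a cause.

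The windows of 4 of the lower genes are printed from RefSeq because their matches lie at different distances from the start. They run 5′ to 3′ along the gene's strand and end at the base before the start, with the Gata1 match in capitals, reading TTATCT where it is on the opposite strand. The windows are chr11:32283422-32283671 (plus strand) for Hba-a1, chrX:150547167-150547416 (plus) for Alas2, chr4:134864286-134864535 (plus) for Rhd and chr9:21963577-21963826 (minus) for Epor. The match begins 183 bases before the start in Hba-a1, 86 in Alas2, 43 in Rhd and 54 in Epor.
Hba-a1: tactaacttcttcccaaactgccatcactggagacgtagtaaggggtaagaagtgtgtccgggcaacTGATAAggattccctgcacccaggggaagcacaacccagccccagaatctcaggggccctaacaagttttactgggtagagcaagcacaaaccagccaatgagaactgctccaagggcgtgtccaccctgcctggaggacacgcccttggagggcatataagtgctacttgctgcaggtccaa
Alas2: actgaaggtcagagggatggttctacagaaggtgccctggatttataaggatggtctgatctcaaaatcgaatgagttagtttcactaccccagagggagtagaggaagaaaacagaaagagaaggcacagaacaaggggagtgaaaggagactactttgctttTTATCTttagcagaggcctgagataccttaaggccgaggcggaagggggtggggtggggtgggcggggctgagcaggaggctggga
Rhd: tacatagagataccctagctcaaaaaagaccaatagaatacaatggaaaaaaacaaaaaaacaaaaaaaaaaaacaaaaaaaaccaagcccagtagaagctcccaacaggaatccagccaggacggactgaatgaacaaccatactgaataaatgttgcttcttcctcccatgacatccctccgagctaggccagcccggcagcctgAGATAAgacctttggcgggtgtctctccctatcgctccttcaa
Epor: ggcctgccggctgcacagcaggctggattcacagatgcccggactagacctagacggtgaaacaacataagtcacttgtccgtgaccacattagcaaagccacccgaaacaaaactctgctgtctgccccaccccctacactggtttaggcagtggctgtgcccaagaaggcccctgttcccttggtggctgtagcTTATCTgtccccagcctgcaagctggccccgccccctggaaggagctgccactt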

How the data were processed

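The members and gene lists were chosen with earlier results of these data known. Per the file headers, Agilent Feature Extraction 10.7.3.1 produced the deposited intensity of every spot, with background subtraction and detrending inside an array and no recorded step between arrays. The authors' deposited value table holds the same intensity values (99.7% of probes within 1% of the scanner value on each array) and served as an alternative. Outlier spots were left out, processed signals were log2-transformed, repeated spots were averaged and the 75th percentile of gene probes was subtracted. Well above background is the scanner call, required in over 50% of the spots of a probe. A gene took its brightest such probe. Where only 1 array was above background, the fold is a bound ("at least") against the dim value or, if higher, the lowest value called on that array. Names came from RefSeq's gene table (GRCm38.p6), and members kept the array design's names. With 1 array per genotype, no test was run, the number of arrays limits the precision, and 2-fold was the threshold. Named were all members, list genes past 2-fold and a few bright or dim others, some chosen after their values were seen. The calculation was tested on simulated data. Python 3.11.15, R 4.3.3 and limma 3.58.1 (normexp with offset 50) were used. A few genes counted in the lists are not reported here by name.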

Additional observations from a re-analysis of the deposited data

How the results depend on the processing

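No paired analysis was possible because each group had 1 array. Of the 13 members at least 2-fold lower, 11 stayed so under each of the 8 alternatives run. Most of these settings could not have removed them. All 11 were measured on both arrays, so the detection rules and bounds left their values unchanged. The authors' value table holds the same intensities, and the spike-in and median scales lower every difference. Only normexp with quantile normalization and, for Hmox1, the mean of its probes could have removed a call. Tal1 and Kel, above background in wild-type only, lay at -0.51 and -0.96 with normexp and quantile normalization and gave no value with detection required on both arrays. Gata1 and Blvrb lay at -1.37 and -1.36 on the spike-in scale. No called member changed sign in these settings. The spike-in scale moved the median of all genes to -0.39, that of the red cell genes to -1.94 and that of the haem genes to -0.59, and gave 1536 genes lower and 577 higher (27.3% of calls higher) against 937 and 893 (48.8%). The median scale moved the median of all genes to -0.11. Of other red cell genes, 1 was higher on the spike-in scale, on the median scale and with normexp, 4 with measured values in place of bounds and 5 without a filter on dim probes. In that list, 2 were lower with normexp and with detection required on both arrays, and 7 without the filter. Of other platelet genes, 1 was higher with detection required on both arrays. At 1.5-fold, 2 haem pathway genes were higher, and 5 other haem and iron genes lower. Beyond the construction of each setting, the cause was not tested. Platelet genes had no median, since none was above background on both arrays. Dim probes, with a spot SD of 0.47, limit what can be said of Klf1, Rhag, Ank1, Trim10 and the platelet genes.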
